A study of Homo sapiens with 23 samples.

Results

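The genes described here are 49 genes that copy DNA or drive cells across the boundary between G1 and S phase. They were taken from a fixed list of symbols, and each was represented by its RefSeq transcript row with the highest mean read count, out of 28105 genes in the deposited tables. All 49 passed the filter on low counts, among 16831 genes tested. Transcripts were measured by RNA-seq of polyadenylated RNA from HCT116 cells, a line from a human colorectal carcinoma. The 8 libraries form 4 groups of 2. MLL4 KO cells were set against WT cells, and BAP1 KO cells against cells titled control, whose genotype is given as WT. MLL4 is the product of KMT2D and methylates histone H3 at enhancers, while BAP1 removes ubiquitin from histone H2A. The deposited tables of control and BAP1 KO carry osTir1 in their names, a receptor from plants with which tagged proteins can be degraded, and those of WT and MLL4 KO do not, while the labels state nothing of it. The knockout replicates have differing numbers in those names, which may be clone numbers. Whether the libraries of a group are separate clones, separate cultures or technical repeats is not stated, and p-values cover the spread between these libraries only.

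Replication starts when the ORC, CDC6 and CDT1 proteins load the MCM2 to MCM7 helicase onto origins in G1. In S phase CDC45 and the GINS complex switch the helicase on, primase and DNA polymerases copy both strands, and the PCNA clamp, loaded by RFC, holds the polymerases on DNA. Most of these genes are transcribed under the control of E2F factors, which RB family proteins hold in check until cyclin and CDK activity rises late in G1. Cells that divide express this programme, and resting cells turn most of it down.

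Summed counts ranged from 24.82 to 42.22 M per library (M, 1e6 counts). Neither targeted gene checks the labels, since KMT2D mRNA was 280 and 406 CPM in MLL4 KO, against 309 and 371 CPM in WT. BAP1 mRNA was 67.4 and 57.4 CPM in BAP1 KO, against 56.7 and 62.1 CPM in control. CPM scales each library's counts to a common depth (TMM). All 9 colon and epithelial markers had reads, with summed levels of 1457 to 2716 RPKM (reads scaled to transcript length and depth), mostly from KRT8, KRT18 and KRT19. Others varied between groups: CDH1 was 4.59 and 11.3 RPKM in BAP1 KO, against 36.3 and 37.7 RPKM in control, and EPCAM was 56.5 and 60.4 RPKM in MLL4 KO, against 113 and 143 RPKM in WT. CLDN4 ranged over 32.1 to 176 RPKM, lowest in MLL4 KO replicate 1 and highest in control replicate 2. The part of these differences in the results was not tested. Of 4 fibroblast markers, DCN and LUM were at 0 in all libraries and the sum was 3.4 to 7.41 RPKM, nearly all from COL1A1. Of 4 leukocyte markers CD3E was at 0 throughout and the sum was 1.97 to 12.7 RPKM, nearly all from CD68, and 3 endothelial markers summed to 0.0362 to 0.14 RPKM. The highest CD68 levels, 12.2 and 12.7 RPKM, were in the control libraries.

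Most of the replication genes were lower in MLL4 KO than in WT and higher in BAP1 KO than in control. In MLL4 KO 27 of 49 fell, none rose and 22 missed an adjusted p of 0.05 in edgeR, with a median log2 fold change of -0.63 (0.646-fold) against 0.004 over all tested genes. Of all tested genes 10% were lower and 9.13% higher in this comparison. In BAP1 KO 38 of 49 rose, none fell and 11 missed the threshold, the median being 0.86 (1.82-fold) against 0.013 over all genes, while 12.1% of all tested genes were higher and 10.4% lower. Of the 49 genes, 20 both fell in MLL4 KO and rose in BAP1 KO, 18 only passed in BAP1 KO, 7 only passed in MLL4 KO and 4 passed in neither. The share of all tested genes with both calls was not computed, so the 20 have no background beside them. In bulk RNA, fewer cells in S phase and less of these transcripts per cell cannot be told apart.

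**Figure D1:**
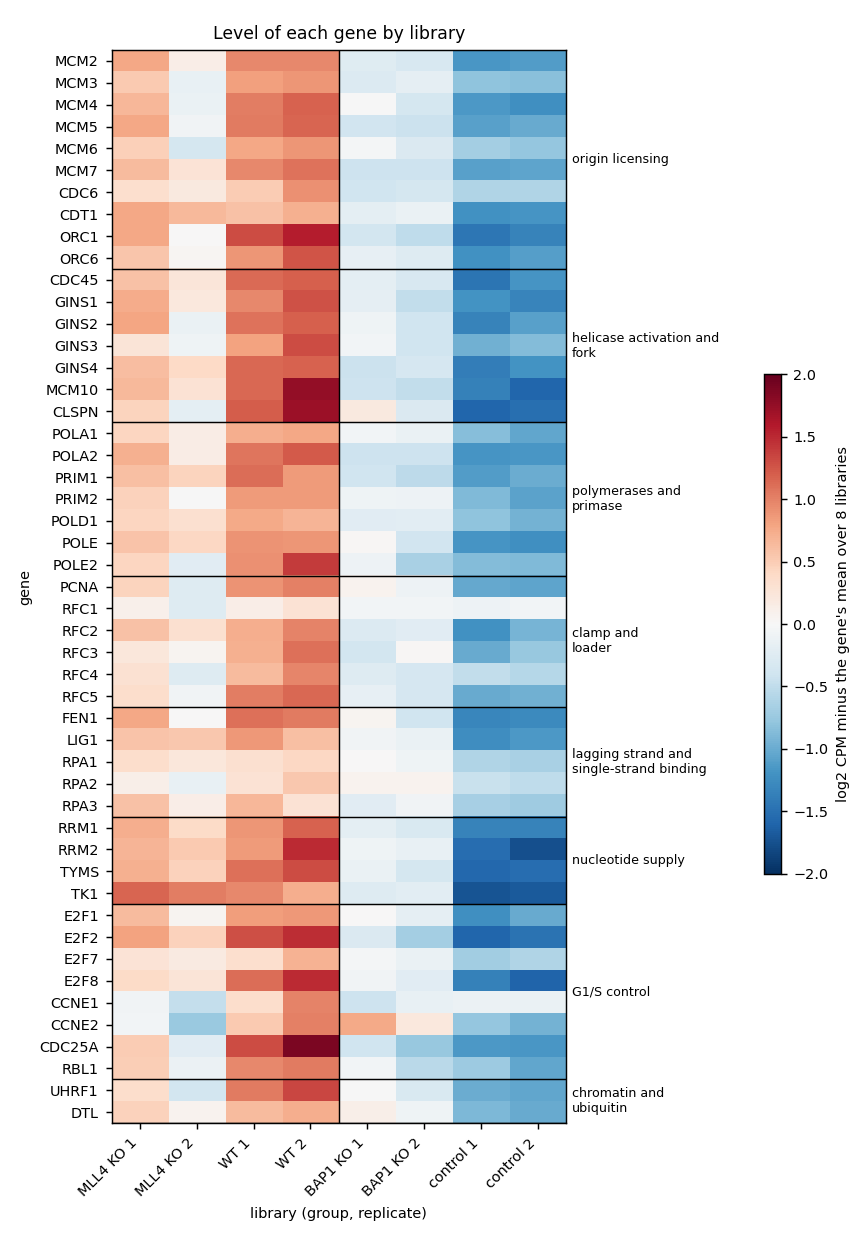
Level of each of the 49 genes (rows, grouped by role) in each of the 8 libraries (columns), as log2 CPM minus the gene's mean over the 8 libraries, with red above and blue below that mean. WT libraries are the reddest and control libraries the bluest, with MLL4 KO and BAP1 KO between them, and MLL4 KO replicate 2 is paler than replicate 1.

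The largest contrast lay between the unedited groups. The summed level of the 49 genes was 1521 and 1139 RPKM in MLL4 KO, against 1851 and 1975 RPKM in WT, and 889 and 819 RPKM in BAP1 KO, against 451 and 456 RPKM in control. The groups did not overlap, and each library of a knockout lay between the WT and the control libraries. Control was lower than WT in 48 of 49 genes, all but the clamp loader gene RFC1, with a median log2 fold change of -2.05 (4.14-fold lower in control). Over all tested genes 19.7% were lower and 19.9% higher in control (39.6% in either direction) and the median was 0.017. Group means ran in the order WT, MLL4 KO, BAP1 KO, control in 43 of the 49 genes and in 9.26% of all tested genes. In 30 of the 49 no libraries overlapped at any step of that order, as in 2.81% of all tested genes. The order is that of the summed levels of these same genes, so both counts describe them and are not separate evidence. The exceptions to the order of means were CDT1, RFC1, RPA2, TK1, CCNE1 and CCNE2. The osTir1 of the table names goes with control and BAP1 KO, so this background and any other difference between the pairs of groups cannot be told apart. Each knockout is therefore described against its own unedited group.

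The knockout effects themselves differed in 46 of the 49 genes by the test of the difference (MLL4 KO effect minus BAP1 KO effect), all in the negative direction, against 8.32% of all tested genes (7.75% differed in the positive direction). The median difference was -1.48 on the log2 scale. RFC1, RPA3, which encodes the smallest subunit of the single-strand binding protein RPA, and CCNE1, which encodes cyclin E1, did not pass. This difference and control against WT are computed from the same 8 libraries as the knockout effects, so they are not separate evidence.

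**Figure D2:**
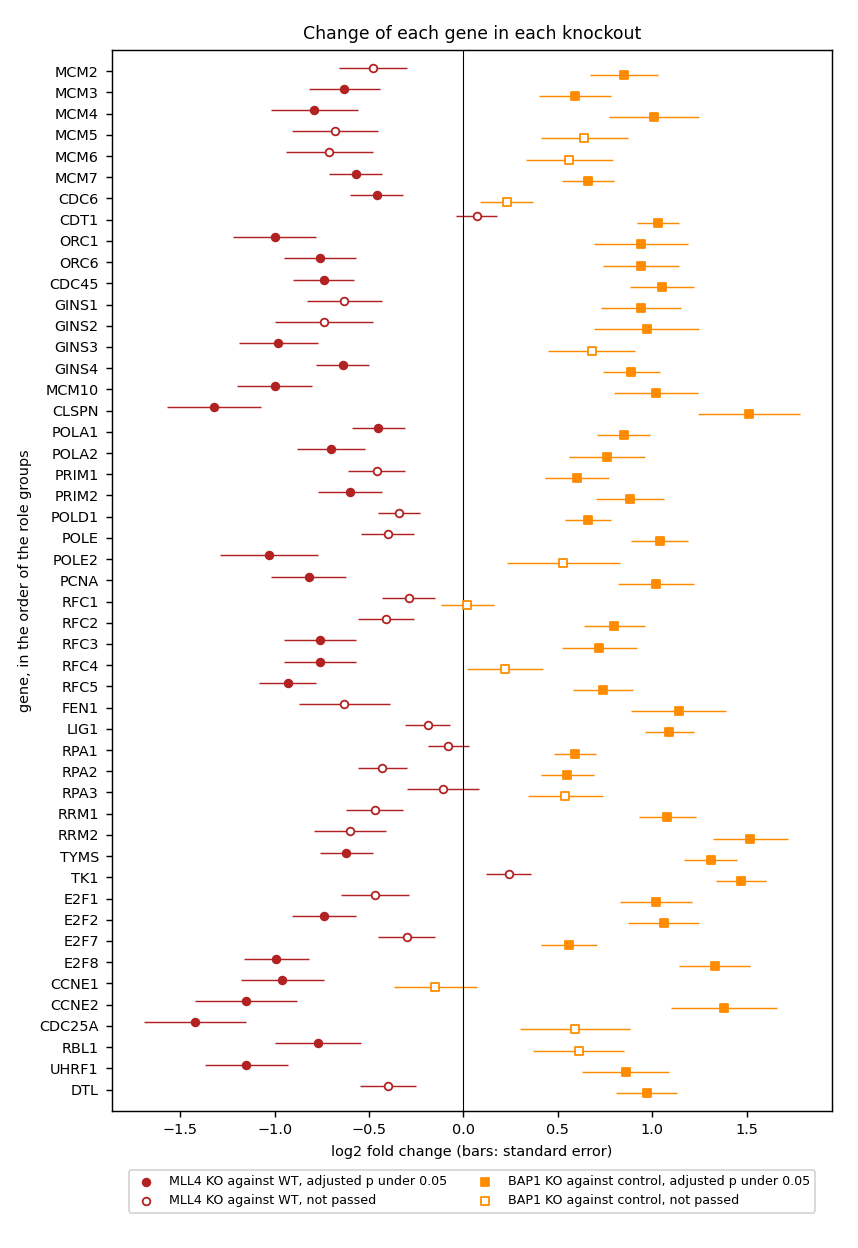
Log2 fold change of each of the 49 genes in MLL4 KO against WT (circles) and in BAP1 KO against control (squares), with standard errors as bars and filled symbols for an edgeR adjusted p under 0.05. The 27 filled circles all lie left of 0 and the 38 filled squares all lie right of it.

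The replicates were uneven in MLL4 KO. Replicate 1 stood above replicate 2 in 49 of 49 genes, with a median gap of 0.39 on the log2 scale, against a median absolute gap of 0.22 over all genes. In WT replicate 2 was higher in 41 of the 49 (median absolute gap 0.20, against 0.29 over all genes). In BAP1 KO replicate 1 was higher in 38 (0.13 against 0.19), and in control replicate 1 was higher in 23 and replicate 2 in 26 (0.08 against 0.10). The shares of all tested genes in these directions were not computed. The median of the 49 fold changes was -0.92 without MLL4 KO replicate 1 and -0.37 without MLL4 KO replicate 2. Even so, both MLL4 KO libraries lay below both WT libraries for 45 of the 49 genes, against 30.3% of all tested genes, and both BAP1 KO libraries lay above both control libraries for 47 of the 49, against 37% of all tested genes. CCNE1 had both BAP1 KO libraries below both control libraries, as did 35.2% of all tested genes.

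The calls in MLL4 KO rested on single libraries, for the 49 genes as for all genes. Without MLL4 KO replicate 2, 26 of the 27 calls were lost and RFC5 remained, and without WT replicate 2, 25 were lost and RFC5 and E2F8 remained. Over all tested genes the share called lower was 0.871% without MLL4 KO replicate 2 and 1.72% without WT replicate 2, against 10% as reported. Without control replicate 1 or 2, which enter through the shared estimate of the spread, 18 and 17 were lost, while 2.56% and 2.92% of all tested genes were called lower. Fitted on the 4 libraries of this comparison alone, none of the 49 genes passed in edgeR, 36 had an unadjusted p under 0.05, and 0.367% of all tested genes were called in either direction. In BAP1 KO 26 of 38 calls were lost without either control library, 22 without BAP1 KO replicate 1 and 9 without BAP1 KO replicate 2, and 44 genes passed when only those 4 libraries were fitted. Over all tested genes the share called in either direction in BAP1 KO was 6.67% and 6.22% without control replicate 1 and 2, and 7.74% without BAP1 KO replicate 1, against 22.4% as reported. In the fit of the BAP1 KO and control libraries alone, 41.6% of all tested genes were called in either direction, so more calls there are not particular to the 49. Upper-quartile scaling moved the median of all genes to 0.088 in MLL4 KO and left 21 of the 49 lower.

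Many of these genes carry E2F-type words at their start. Upstream sequence in RefSeq (GRCh38.p14, the assembly named hg38) was matched for 42 of the 49 genes, all but MCM4, MCM5, GINS4, RPA2, RPA3, E2F8 and CCNE2. The words TTTCCCGC, TTTCGCGC, TTTGCCGC and TTTGGCGC were searched on both strands. In the window of 250 bases before to 50 bases after the gene start, 24 of 42 (57.1%) held at least 1 word. The share was 3.33% of all 27305 genes with such sequence in RefSeq and 5.12% of the 12764 tested genes among them. The rest of the 16831 tested genes had no matched sequence. In the 250 bases before the start alone the shares were 42.9% of the 42 genes and 4.29% of the tested genes. Median GC content of these 250 bases was 65.6% in the 42 genes and 64.4% in the tested genes. CCAAT, the word bound by NF-Y, stood in 59.5% of the 42 windows, against 36.2% of tested genes, and TTTGAA or TTCGAA, the words of the CHR element of mitotic genes, in 4.76% against 11.4%. The 18 genes with an E2F word before the start had a median log2 fold change of -0.67 in MLL4 KO and 0.92 in BAP1 KO, and the 24 without a word before the start had -0.61 and 0.82. Of those 24 genes, 18 rose in BAP1 KO, against 15 of the 18 with a word. The 24 include 6 genes that hold a word in the longer window.

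Shown are the 250 bases before the start of 4 genes with E2F words, chosen from the helicase, nucleotide and G1/S groups, and of CCNE1 and RFC1, which hold none of the 4 words there (all 6 chosen after their values were seen). CCNE1 and RFC1 did not pass in BAP1 KO, nor did MCM6 and CDC25A, so nothing about the change is read from these sequences. Capitals mark the E2F words, each sequence runs 5′ to 3′ toward the gene, and positions count back from the start. MCM6 (chr2:135876444-135876693, minus strand) holds 2 overlapping pairs of words. CDC25A (chr3:48188418-48188667, minus strand) has its word from -44 to -37, TYMS (chr18:657403-657652, plus strand) from -39 to -32, and E2F1 (chr20:33686386-33686635, minus strand) has words at -33 and -20. CCNE1 lies at chr19:29811741-29811990 on the plus strand and RFC1 at chr4:39366363-39366612 on the minus strand. A match is only these letters in this window, and an absence says nothing of E2F binding.
MCM6: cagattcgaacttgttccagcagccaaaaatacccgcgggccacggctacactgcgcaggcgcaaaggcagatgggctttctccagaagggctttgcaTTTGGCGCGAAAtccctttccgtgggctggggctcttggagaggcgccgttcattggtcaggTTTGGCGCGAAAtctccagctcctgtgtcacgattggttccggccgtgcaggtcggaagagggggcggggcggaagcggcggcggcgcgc
CDC25A: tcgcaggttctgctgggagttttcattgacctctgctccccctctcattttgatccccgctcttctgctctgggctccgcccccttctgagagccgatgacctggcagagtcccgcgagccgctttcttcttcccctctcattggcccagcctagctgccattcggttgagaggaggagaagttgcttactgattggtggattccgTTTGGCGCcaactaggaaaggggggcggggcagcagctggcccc
TYMS: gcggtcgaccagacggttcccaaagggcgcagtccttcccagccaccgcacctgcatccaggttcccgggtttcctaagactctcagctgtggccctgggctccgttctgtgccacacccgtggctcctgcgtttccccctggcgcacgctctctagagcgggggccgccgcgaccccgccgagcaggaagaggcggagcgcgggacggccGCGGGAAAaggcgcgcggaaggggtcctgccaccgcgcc
E2F1: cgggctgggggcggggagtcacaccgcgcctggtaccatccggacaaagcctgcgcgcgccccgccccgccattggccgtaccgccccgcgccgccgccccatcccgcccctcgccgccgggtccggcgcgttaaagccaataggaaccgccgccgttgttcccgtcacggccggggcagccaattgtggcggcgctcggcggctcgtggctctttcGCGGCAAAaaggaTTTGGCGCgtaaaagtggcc
CCNE1: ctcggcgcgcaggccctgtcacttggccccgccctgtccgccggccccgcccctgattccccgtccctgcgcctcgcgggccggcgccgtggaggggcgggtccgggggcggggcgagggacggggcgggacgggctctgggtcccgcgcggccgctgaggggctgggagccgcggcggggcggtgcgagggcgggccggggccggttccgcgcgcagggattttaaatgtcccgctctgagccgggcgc
RFC1: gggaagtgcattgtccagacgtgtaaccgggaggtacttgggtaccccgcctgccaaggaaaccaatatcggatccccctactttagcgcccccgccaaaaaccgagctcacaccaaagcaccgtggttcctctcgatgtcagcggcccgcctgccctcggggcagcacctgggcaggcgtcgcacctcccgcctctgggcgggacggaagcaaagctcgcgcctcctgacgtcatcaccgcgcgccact

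The 10 origin licensing genes moved in opposite directions in the knockouts, with 6 lower in MLL4 KO and 7 higher in BAP1 KO. MCM7 (chromosome 7, 100092728 to 100101397, hg38), a helicase subunit and at 109 RPKM the most abundant of the 49 genes per length, had 466 and 364 CPM in MLL4 KO, against 587 and 642 CPM in WT. It had 227 and 227 CPM in BAP1 KO, against 142 and 145 CPM in control. MCM7 fell by 0.57 ± 0.14 on the log2 scale in MLL4 KO (SE, n = 2 libraries per group, edgeR adjusted p = 0.025) and rose by 0.66 ± 0.14 in BAP1 KO (adjusted p = 0.00895). The libraries of the groups did not overlap. MCM4, with the largest fall among the helicase subunits that passed, had 304 and 175 CPM in MLL4 KO, against 392 and 439 CPM in WT. The level was 192 and 151 CPM in BAP1 KO, against 87.4 and 82.6 CPM in control. Its log2 fold changes were -0.79 ± 0.23 (adjusted p = 0.0474) and 1.01 ± 0.24 (adjusted p = 0.0179). MCM3 had 278 and 175 CPM in MLL4 KO, against 342 and 359 CPM in WT. The level was 160 and 171 CPM in BAP1 KO, against 111 and 109 CPM in control, and both changes passed narrowly (adjusted p = 0.0444 and 0.05 to rounding).

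The other helicase subunits had the same signs, and fewer of them passed. MCM2 had 268 and 172 CPM in MLL4 KO, against 306 and 306 CPM in WT, a change of -0.48 ± 0.18 that did not pass (adjusted p = 0.0903). It had 132 and 125 CPM in BAP1 KO, against 69.9 and 72.3 CPM in control, and rose by 0.85 ± 0.18 (adjusted p = 0.0102). MCM5 (210 and 117 CPM in MLL4 KO, against 250 and 273 CPM in WT) and MCM6 (148 and 83.8 CPM in MLL4 KO, against 183 and 196 CPM in WT) passed in neither knockout. In BAP1 KO MCM5 had 93.3 and 91.2 CPM, against 57.7 and 60.7 CPM in control, and MCM6 had 104 and 87.3 CPM, against 66.7 and 62.7 CPM in control. All 6 helicase subunits were lowest in MLL4 KO replicate 2 among the WT and MLL4 KO libraries.

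Among the loaders, ORC1, the largest origin recognition subunit, had the largest fall of the licensing genes. ORC1 (chromosome 1, 52372829 to 52409503) had 32.7 and 19.4 CPM in MLL4 KO, against 47.6 and 57 CPM in WT, a change of -1.0 ± 0.22 (adjusted p = 0.0197). It had 14.9 and 13.5 CPM in BAP1 KO, against 7.05 and 7.64 CPM in control, and rose by 0.94 ± 0.25 (adjusted p = 0.0239). ORC6, another origin recognition subunit, fell by 0.76 ± 0.19 in MLL4 KO and rose by 0.94 ± 0.20 in BAP1 KO. CDC6, the ATPase that bridges ORC and the helicase, fell by 0.46 ± 0.14 in MLL4 KO, and its change of 0.23 ± 0.14 in BAP1 KO did not pass. CDT1, the helicase loader that is destroyed in S phase, stood apart, with 201 and 185 CPM in MLL4 KO, against 177 and 193 CPM in WT. These libraries overlapped and the change of 0.07 ± 0.11 did not pass (adjusted p = 0.697). In BAP1 KO it had 103 and 107 CPM, against 50.8 and 52 CPM in control, and rose by 1.03 ± 0.11 (adjusted p = 0.000486). The 6 falls were lost without WT replicate 2 or MLL4 KO replicate 2, and all but that of ORC1 without either control library. The rise of CDT1 passed under each of the 20 alternatives tried, and the other 6 rises were lost without either control library or BAP1 KO replicate 1. That of MCM3 passed in 5 of the 20 alternatives, against 17 of 20 for MCM7, and was also lost without either WT library or BAP1 KO replicate 2.

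The genes that switch the helicase on and travel with the fork changed in both knockouts, with 5 of 7 lower in MLL4 KO and 6 of 7 higher in BAP1 KO. CLSPN (chromosome 1, 35720213 to 35769978), which encodes claspin, the adaptor between stalled forks and the CHK1 kinase, had 50.2 and 32.3 CPM in MLL4 KO, against 85.3 and 121 CPM in WT. It had 42.1 and 30.2 CPM in BAP1 KO, against 12.3 and 12.9 CPM in control. It fell by 1.32 ± 0.25 in MLL4 KO (adjusted p = 0.0155), rose by 1.51 ± 0.27 in BAP1 KO (adjusted p = 0.00536) and had the largest difference between the knockout effects, -2.84 on the log2 scale (adjusted p = 0.00283). CLSPN was also the gene with the largest gap between control and WT, at -3.03. MCM10, a scaffold for starting forks, had 49.1 and 38.3 CPM in MLL4 KO, against 69.4 and 105 CPM in WT. The level was 23.3 and 22.2 CPM in BAP1 KO, against 12.2 and 10.4 CPM in control. Its changes were -1.0 ± 0.20 and 1.02 ± 0.22.

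CDC45, the helicase cofactor, had 30.9 and 24.6 CPM in MLL4 KO, against 45.3 and 47.5 CPM in WT. The level was 18.1 and 16.5 CPM in BAP1 KO, against 7.52 and 9.13 CPM in control. It fell by 0.74 ± 0.16 (adjusted p = 0.0177) and rose by 1.05 ± 0.17 (adjusted p = 0.00306). The GINS genes encode the other helicase cofactor and were not called alike. GINS3 had 17 and 13.3 CPM in MLL4 KO, against 24.8 and 34.9 CPM in WT, and fell by 0.98 ± 0.21, while its 13.6 and 10.7 CPM in BAP1 KO, against 7.29 and 7.79 CPM in control, did not pass (0.68 ± 0.23, adjusted p = 0.0588). GINS4 had 31.5 and 27 CPM in MLL4 KO, against 45.2 and 46.2 CPM in WT, and fell by 0.64 ± 0.14. In BAP1 KO GINS4 had 15.2 and 16.2 CPM, against 7.83 and 8.95 CPM in control, and rose by 0.89 ± 0.15. Both genes kept each knockout apart from its own unedited group in every library. GINS1 had 46.8 and 32.1 CPM in MLL4 KO, against 54.4 and 67.4 CPM in WT. The level of GINS1 was 24.6 and 19.8 CPM in BAP1 KO, against 12.1 and 11.1 CPM in control. GINS1 and GINS2 rose by 0.94 ± 0.21 and 0.97 ± 0.28 in BAP1 KO and did not pass in MLL4 KO, at -0.63 ± 0.20 and -0.74 ± 0.26. The 5 falls in this group were lost without WT replicate 2 or MLL4 KO replicate 2, and that of GINS4 also without control replicate 1. The rise of CDC45 passed in every alternative tried, while the other 5 were lost without control replicate 1, and those of GINS1, GINS2, MCM10 and CLSPN also without control replicate 2. Without BAP1 KO replicate 1 those of GINS1, GINS2 and MCM10 were lost.

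**Figure D3:**
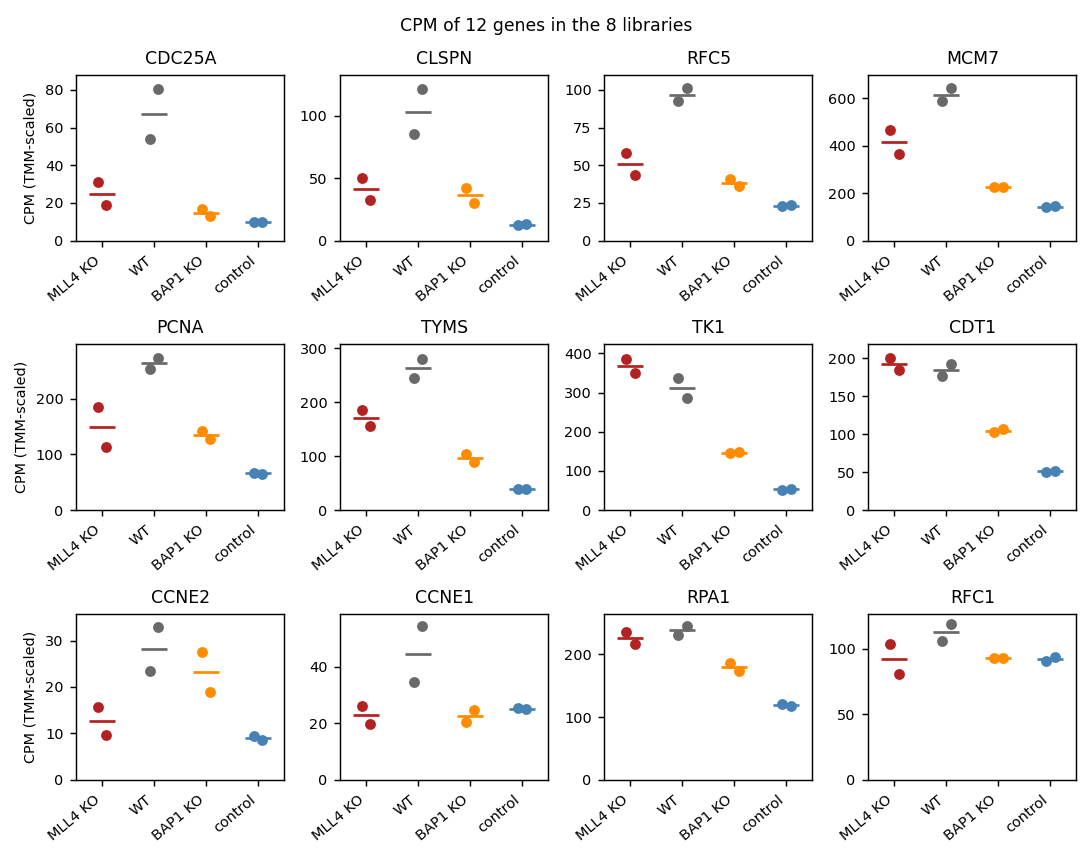
CPM of 12 genes in the 8 libraries, with points for libraries, lines for group means and axes from 0. In CDC25A, CLSPN, RFC5, MCM7, PCNA and TYMS both MLL4 KO libraries lie below both WT libraries and both BAP1 KO libraries above both control libraries, while the RFC1 groups lie close together and TK1 and CDT1 have MLL4 KO means above WT.

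Of 7 polymerase and primase genes, 4 fell in MLL4 KO and 6 rose in BAP1 KO. POLE2 (chromosome 14, 49643555 to 49688214), which encodes the second subunit of the leading strand polymerase epsilon, had 12.8 and 8.16 CPM in MLL4 KO, against 17.9 and 25.1 CPM in WT. It fell by 1.03 ± 0.26 there (adjusted p = 0.0291). POLE2 had 8.93 and 6.09 CPM in BAP1 KO, against 5.21 and 5.2 CPM in control, a change of 0.53 ± 0.30 that did not pass (adjusted p = 0.232). The catalytic subunit of the same enzyme passed in BAP1 KO and not in MLL4 KO. POLE had 208 and 186 CPM in MLL4 KO, against 261 and 259 CPM in WT, a change of -0.40 ± 0.14 that did not pass (adjusted p = 0.0774). It had 142 and 107 CPM in BAP1 KO, against 61.5 and 59.4 CPM in control, and rose by 1.04 ± 0.15 (adjusted p = 0.00144). The effects differed between knockouts for both subunits. POLD1, the catalytic subunit of polymerase delta, had 108 and 100 CPM in MLL4 KO, against 136 and 128 CPM in WT, and did not pass at -0.34 ± 0.11 (adjusted p = 0.0597), the smallest change of its group. In BAP1 KO it had 68.8 and 69.6 CPM, against 45.9 and 41.5 CPM in control, and rose by 0.66 ± 0.12 (adjusted p = 0.00395).

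The polymerase alpha and primase genes, which lay the primers, had the same signs throughout. POLA1, POLA2 and PRIM2 fell by 0.45, 0.70 and 0.60 in MLL4 KO and rose by 0.85, 0.76 and 0.88 in BAP1 KO on the log2 scale, and PRIM1, the primase catalytic subunit, passed only in BAP1 KO (0.60 ± 0.17, against -0.46 ± 0.15 in MLL4 KO). The 4 falls were each lost without MLL4 KO replicate 2 or WT replicate 2, and also without either of the control libraries. The rise of POLE passed in every alternative tried. The other 5 rises were lost without control replicate 2, and those of POLA2, PRIM1 and PRIM2 also without control replicate 1 or BAP1 KO replicate 1.

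In the clamp and clamp loader group 4 of 6 genes fell in MLL4 KO and 4 rose in BAP1 KO. RFC5 (chromosome 12, 118016703 to 118041448), a small clamp loader subunit, had 57.9 and 43.5 CPM in MLL4 KO, against 92.4 and 101 CPM in WT. It fell by 0.93 ± 0.15 (adjusted p = 0.00966), the smallest p of the 49 genes in this comparison. It was lost only when the 4 libraries of the comparison were fitted alone, with adjusted p = 0.079, against 0.00433 to 0.0425 when single libraries were left out. RFC5 had 40.7 and 36.1 CPM in BAP1 KO, against 22.7 and 23.4 CPM in control, and rose by 0.74 ± 0.16 (adjusted p = 0.00988). PCNA (chromosome 20, 5114953 to 5126622), the sliding clamp, had 185 and 114 CPM in MLL4 KO, against 253 and 273 CPM in WT. It had 142 and 127 CPM in BAP1 KO, against 66.8 and 65.4 CPM in control, so that MLL4 KO replicate 2 lay below both BAP1 KO libraries. PCNA fell by 0.82 ± 0.20 in MLL4 KO (adjusted p = 0.025) and rose by 1.02 ± 0.20 in BAP1 KO (adjusted p = 0.00691).

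The remaining clamp loader genes ranged widely. RFC1, the large loader subunit, had 104 and 81 CPM in MLL4 KO, against 106 and 119 CPM in WT. The level was 92.8 and 93.2 CPM in BAP1 KO, against 90.4 and 93.4 CPM in control. Its changes of -0.29 ± 0.14 and 0.02 ± 0.14 did not pass, and it was the gene that also did not pass between control and WT (-0.29, adjusted p = 0.117). RFC3 fell by 0.76 ± 0.19 and rose by 0.72 ± 0.20, RFC4 fell by 0.76 ± 0.19 and did not pass in BAP1 KO (0.22 ± 0.20), and RFC2 did not pass in MLL4 KO (-0.41 ± 0.15) and rose by 0.80 ± 0.16 in BAP1 KO. The falls of PCNA, RFC3 and RFC4 were lost without MLL4 KO replicate 2 or WT replicate 2, and also without either of the control libraries. All 4 rises were lost without control replicate 1, and all but that of RFC2 without control replicate 2.

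None of the 5 genes of lagging strand processing and single-strand binding passed in MLL4 KO by edgeR, and 4 rose in BAP1 KO. FEN1 and RPA2 had an unadjusted p under 0.05 in MLL4 KO (0.0279 and 0.0101). RPA2 was called lower in 7 of the 20 alternatives (adjusted p = 0.0514 as reported) and FEN1 in 2. FEN1, the nuclease that trims Okazaki fragments, had 130 and 76 CPM in MLL4 KO, against 163 and 155 CPM in WT, with a change of -0.63 ± 0.24 (adjusted p = 0.0953). In BAP1 KO FEN1 had 79.1 and 57.6 CPM, against 30.6 and 31.4 CPM in control, and rose by 1.14 ± 0.25 (adjusted p = 0.0124). LIG1, the ligase that joins the fragments, had 111 and 109 CPM in MLL4 KO, against 137 and 114 CPM in WT, a change of -0.19 ± 0.12 that did not pass. In BAP1 KO LIG1 had 71 and 68.6 CPM, against 31.8 and 33.6 CPM in control, and rose by 1.09 ± 0.13 (adjusted p = 0.000532). The LIG1 libraries of BAP1 KO and control were far apart, and WT replicate 2 was close to both MLL4 KO libraries.

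RPA1, the large subunit of the single-strand binding protein, had 236 and 216 CPM in MLL4 KO, against 231 and 246 CPM in WT, with overlapping libraries and a change of -0.08 ± 0.11. In BAP1 KO RPA1 had 186 and 174 CPM, against 121 and 118 CPM in control, and rose by 0.59 ± 0.11 (adjusted p = 0.00616). RPA2 rose by 0.55 ± 0.14 and RPA3 did not pass at 0.54 ± 0.20 (adjusted p = 0.0825). The rise of LIG1 passed in every alternative tried, and those of FEN1, RPA1 and RPA2 were lost without either control library or BAP1 KO replicate 1.

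All 4 nucleotide supply genes rose in BAP1 KO, each under all 20 alternatives tried, and 1 fell in MLL4 KO. TYMS (chromosome 18, 657653 to 673578), thymidylate synthase, had 186 and 156 CPM in MLL4 KO, against 245 and 281 CPM in WT, and fell by 0.62 ± 0.14 (adjusted p = 0.0196). It had 104 and 89.2 CPM in BAP1 KO, against 38.5 and 39.5 CPM in control, and rose by 1.31 ± 0.14 (adjusted p = 0.000445). TYMS had the smallest p of the 49 genes for the difference of the knockout effects, at -1.93 (adjusted p = 0.000886). RRM2, the cell cycle regulated subunit of ribonucleotide reductase, had 309 and 279 CPM in MLL4 KO, against 348 and 543 CPM in WT, a change of -0.60 ± 0.19 that did not pass (adjusted p = 0.0565). It had 182 and 174 CPM in BAP1 KO, against 67.6 and 57 CPM in control, and its rise of 1.52 ± 0.20 (2.86-fold, adjusted p = 0.00109) was the largest of the 49 genes in BAP1 KO.

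RRM1, the large reductase subunit, had 146 and 114 CPM in MLL4 KO, against 161 and 198 CPM in WT, and did not pass at -0.47 ± 0.15 (adjusted p = 0.0557). In BAP1 KO RRM1 had 76.4 and 71.3 CPM, against 34.9 and 34.9 CPM in control, and rose by 1.08 ± 0.15 (adjusted p = 0.00156). TK1, thymidine kinase of the salvage route, was the only gene of the 49 whose MLL4 KO libraries both lay above both WT libraries, with 387 and 351 CPM in MLL4 KO, against 338 and 285 CPM in WT. That change of 0.24 ± 0.12 did not pass (adjusted p = 0.182), and TK1 was called higher only without WT replicate 1 among the libraries left out. In BAP1 KO TK1 had 145 and 149 CPM, against 52.5 and 53.7 CPM in control, and rose by 1.47 ± 0.13 (adjusted p = 0.000148), the smallest p of the 49 genes in that comparison. The fall of TYMS was lost without MLL4 KO replicate 2 or WT replicate 2, and also without either of the control libraries.

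Of the 8 genes of G1/S control, 6 fell in MLL4 KO and 5 rose in BAP1 KO. CDC25A (chromosome 3, 48157146 to 48188417), the phosphatase that activates CDK2 at the start of S phase, had 31.2 and 18.7 CPM in MLL4 KO, against 53.8 and 80.4 CPM in WT. Its fall of 1.42 ± 0.27 (0.373-fold, adjusted p = 0.0145) was the largest of the 49 genes in MLL4 KO. It had 16.6 and 12.9 CPM in BAP1 KO, against 9.87 and 9.74 CPM in control, a change of 0.59 ± 0.29 that did not pass (adjusted p = 0.178). The cyclin E genes, whose products pair with CDK2, were called differently in BAP1 KO, where CCNE2 passed and CCNE1 did not. CCNE2 was singled out after its values were seen, and the contrast between both genes was not tested. CCNE2 had 15.7 and 9.7 CPM in MLL4 KO, against 23.5 and 32.9 CPM in WT. The level was 27.6 and 18.9 CPM in BAP1 KO, against 9.52 and 8.49 CPM in control. It fell by 1.15 ± 0.27 (adjusted p = 0.025) and rose by 1.38 ± 0.28 (adjusted p = 0.00938), and its BAP1 KO libraries lay above its MLL4 KO libraries. CCNE1 (chromosome 19, 29811991 to 29824312) had 25.9 and 19.7 CPM in MLL4 KO, against 34.6 and 54.2 CPM in WT, and fell by 0.96 ± 0.22 (adjusted p = 0.022). In BAP1 KO CCNE1 had 20.5 and 24.7 CPM, against 25.2 and 25 CPM in control, a change of -0.15 ± 0.22 that did not pass (adjusted p = 0.664), and it was the only one of the 49 genes with a negative fold change in BAP1 KO.

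Among the E2F genes, the repressor E2F8 (chromosome 11, 19224063 to 19241655) had the largest fall in MLL4 KO. It had 21.2 and 19.6 CPM in MLL4 KO, against 35.5 and 45.7 CPM in WT. The level was 15.5 and 13.9 CPM in BAP1 KO, against 6.42 and 5.36 CPM in control. It fell by 0.99 ± 0.17 (adjusted p = 0.0104) and rose by 1.33 ± 0.19 (adjusted p = 0.00149). E2F1, an activator, had 50.2 and 33.7 CPM in MLL4 KO, against 57.8 and 58.8 CPM in WT, and did not pass at -0.47 ± 0.18 (adjusted p = 0.0965). In BAP1 KO E2F1 had 32.3 and 28.6 CPM, against 13.8 and 16.1 CPM in control, and rose by 1.02 ± 0.19 (adjusted p = 0.00597). E2F2, another activator, fell by 0.74 ± 0.17 and rose by 1.06 ± 0.19. E2F7, a repressor close to E2F8, had 40.5 and 38 CPM in MLL4 KO, against 42.3 and 54.3 CPM in WT, and did not pass at -0.30 ± 0.15, while in BAP1 KO it had 32.5 and 30.7 CPM, against 20.6 and 22 CPM in control, and rose by 0.56 ± 0.15. RBL1, which encodes the RB relative p107, fell by 0.77 ± 0.23 and did not pass in BAP1 KO at 0.61 ± 0.24. The fall of E2F8 was lost only without MLL4 KO replicate 2 among the libraries left out, that of CDC25A without it or WT replicate 2, and the other 4 also without either control library. The rise of E2F8 passed in every alternative tried, and those of E2F1, E2F2, E2F7 and CCNE2 were lost without control replicate 1 or BAP1 KO replicate 1.

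UHRF1 and DTL link replication to chromatin and protein turnover. UHRF1, which reads hemimethylated DNA behind the fork, had 156 and 94.2 CPM in MLL4 KO, against 250 and 306 CPM in WT, and fell by 1.15 ± 0.22 (adjusted p = 0.0159). It had 121 and 98.4 CPM in BAP1 KO, against 61.2 and 59.2 CPM in control, and rose by 0.86 ± 0.23 (adjusted p = 0.0265). DTL, the receptor that directs CDT1 to a ubiquitin ligase in S phase, had 57.1 and 43.6 CPM in MLL4 KO, against 64.6 and 68.8 CPM in WT, a change of -0.40 ± 0.15 that did not pass (adjusted p = 0.0876). In BAP1 KO DTL had 45.1 and 39.3 CPM, against 22.4 and 20.6 CPM in control, and rose by 0.97 ± 0.16 (adjusted p = 0.00282). The fall of UHRF1 was lost without WT replicate 2 or MLL4 KO replicate 2, its rise without either control or either BAP1 KO library, and the rise of DTL without control replicate 2.

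Other lists of cell cycle genes were read beside the 49. Of 40 other replication genes 18 fell and 1 rose in MLL4 KO (median -0.51), and 21 rose and none fell in BAP1 KO (median 0.60). SLBP, which binds histone mRNA, fell by 0.73 ± 0.13 in MLL4 KO, DBF4, the activator of the CDC7 kinase, by 1.04 ± 0.19, and POLD4, the smallest subunit of polymerase delta, rose by 1.32 ± 0.27 there. ASF1B, a histone chaperone, had 64.4 and 55.8 CPM in BAP1 KO, against 20.1 and 18 CPM in control, and rose by 1.66 ± 0.14 (adjusted p = 0.000118). All 25 mitosis genes rose in BAP1 KO (median 1.49), and 14 of them fell and none rose in MLL4 KO (median -0.58). KIF20A, a kinesin of cell division, had 43.7 and 31.2 CPM in BAP1 KO, against 9.71 and 9.69 CPM in control, a rise of 1.95 ± 0.17. CENPF, a kinetochore gene, had 172 and 145 CPM in MLL4 KO, against 314 and 333 CPM in WT. Between control and WT all 25 mitosis genes were lower, with a median of -2.68. Of all tested genes, 10% were lower and 9.13% higher in MLL4 KO, and 12.1% higher and 10.4% lower in BAP1 KO. In control 19.7% were lower and 19.9% higher than in WT. The medians over all tested genes were 0.004, 0.013 and 0.017 in these comparisons.

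The regulators upstream were mixed, with 7 of 33 lower and 5 higher in MLL4 KO, and 3 lower and 11 higher in BAP1 KO. Over all tested genes 10% were lower and 9.13% higher in MLL4 KO, and 10.4% lower and 12.1% higher in BAP1 KO, so the 3 of 33 lower in BAP1 KO (9.09%) are near that background. The members named next have the smallest p of the list and do not describe it as a whole. The CDK inhibitor genes CDKN1A, CDKN1B, CDKN1C and CDKN2B rose in MLL4 KO, by 1.26 ± 0.26, 1.16 ± 0.15, 1.16 ± 0.25 and 1.35 ± 0.22 on the log2 scale. The other inhibitor genes of the list did not pass in MLL4 KO: CDKN2A at 0.43 ± 0.13, CDKN2C at -0.53 ± 0.27 and CDKN2D at 0.24 ± 0.18. CDKN1B also rose in BAP1 KO, by 0.55 ± 0.15, while CDKN1A (-0.10 ± 0.26) and CDKN1C (-0.32 ± 0.24) did not pass there. CDK6, a kinase that starts RB phosphorylation, had 44.4 and 47.9 CPM in MLL4 KO, against 116 and 128 CPM in WT, and fell by 1.40 ± 0.20 (adjusted p = 0.00701). CDK4, also on the list, did not pass in MLL4 KO (-0.15 ± 0.13, adjusted p = 0.446). CDKN2B, which encodes p15, an inhibitor of CDK4 and CDK6, had 15.8 and 16.9 CPM in MLL4 KO, against 7.37 and 5.5 CPM in WT. The level was 7.43 and 11.6 CPM in BAP1 KO, against 89.1 and 90.3 CPM in control. It fell by 3.24 ± 0.22 in BAP1 KO (adjusted p = 3.65e-05), and its level was highest in control, where the 49 genes were lowest. CDKN2B was also higher in MLL4 KO than in BAP1 KO, as was the summed level of the 49 genes. A link between CDKN2B and the 49 genes was not tested. MYC, a transcription factor gene of cell growth, fell in BAP1 KO by 1.36 ± 0.17 and in MLL4 KO by 0.63 ± 0.16. Among the rises in BAP1 KO were CDK2 (0.97 ± 0.14) and the inhibitor genes CDKN2C (2.33 ± 0.38) and CDKN2D (1.03 ± 0.19).

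**Figure D4:**
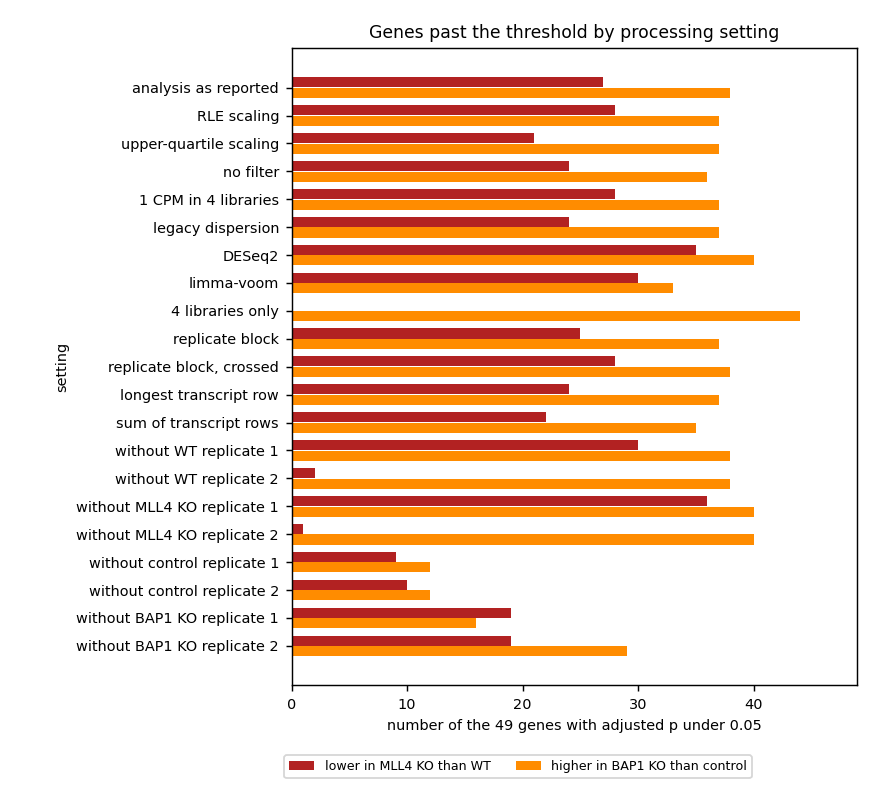
Number of the 49 genes lower in MLL4 KO than in WT (red) and higher in BAP1 KO than in control (orange) at an adjusted p under 0.05, in the analysis as reported and under each of 20 alternatives. The MLL4 KO count ranges between 0 and 36 and the BAP1 KO count between 12 and 44.

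Some of these genes overlap neighbours, and no source used here gives the strand setting of the counting. TYMS overlaps ENOSF1, PCNA overlaps its antisense gene PCNA-AS1, RPA3 overlaps UMAD1, and ORC1, RFC5, PRIM2, MCM7, CCNE2 and DTL overlap PRPF38A, WSB2, RAB23, AP4M1, INTS8 and NDUFAF6, and the pseudogene RPL21P28, so their levels are uncertain to that extent. UHRF1, E2F8, CLSPN and LIG1 overlap ARRDC5, CSRP3-AS1, CLSPN-AS1 and LIG1-AS1 and share that limit. The mean count was 0.9 for ARRDC5, against 4581.9 for UHRF1, so few reads were assigned to ARRDC5.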

How the data were processed

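RNA-seq of polyadenylated RNA from HCT116 cells, made from 1 µg of total RNA per the labels' protocols, gave 8 libraries in 4 groups of 2. The 15 ChIP-seq samples of the 23 in the series were not analysed here. The authors deposited, per library, raw read counts and RPKM values per RefSeq transcript, per the file headers. The submitters' processing notes name hg38, bcl2fastq, Bowtie2, STAR and SICER 1.1 without roles. How reads were counted, with which strand setting and annotation, was not given in the sources used here.

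Transcript IDs were paired with symbols through RefSeq (GRCh38.p14), and the transcript with the highest mean count stood for each gene. Transcripts with no symbol held 0.23 to 0.2516% of the counts and were left out. Counts were tested with edgeR 4.0.16 (R 4.3.3; filterByExpr, TMM, robust quasi-likelihood, 1 fit of all 8 libraries with a mean per group). All tests were two-sided, with Benjamini-Hochberg adjustment over 16831 genes and a threshold of 0.05. The SE of a log2 fold change is its size divided by the square root of F. The procedure was tested on simulated data. Those had a common spread in all groups, so they do not cover the uneven replicates described above. RPKM values were used as deposited, without TMM scaling, to compare levels between genes and to describe marker levels and summed levels per library. No test used RPKM. Alternatives used DESeq2 1.42.0, limma 3.58.1 (voom), other scalings, filters and transcript choices, a replicate block and leaving out each library.

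Values per library are given for the 12, 8, 4 and 4 genes with the smallest p in MLL4 KO, BAP1 KO, the difference and control against WT, for the largest and smallest change of each role group in MLL4 KO, and for MCM2 to MCM7, PCNA and E2F1. For other lists up to 4 genes with the smallest p per direction are named, and 1 gene under that rule is not reported here. The members, lists and tests were chosen with earlier results of these data known.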

Additional observations from a re-analysis of the deposited data

Results flagged for a closer look

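The effect of MLL4 KO (against WT) and that of BAP1 KO (against control) differed for 46 of the 49 genes in edgeR's test of the difference, with adjusted p-values under 0.05 over all tested genes. Each value below is the MLL4 KO effect minus the BAP1 KO effect on the log2 scale. Among the origin licensing genes it was -1.23 for MCM7, -1.71 for ORC6, -0.96 for CDT1, -1.95 for ORC1, -1.33 for MCM2, -1.81 for MCM4, -1.22 for MCM3, -1.32 for MCM5, -1.27 for MCM6 and -0.69 for CDC6. For helicase activation and the fork it was -1.79 for CDC45, -1.54 for GINS4, -2.84 for CLSPN, -2.01 for MCM10, -1.57 for GINS1, -1.66 for GINS3 and -1.71 for GINS2. For the polymerases and primase it was -1.44 for POLE, -1.30 for POLA1, -1.01 for POLD1, -1.48 for PRIM2, -1.46 for POLA2, -1.06 for PRIM1 and -1.56 for POLE2. For the clamp and its loader it was -1.66 for RFC5, -1.84 for PCNA, -1.21 for RFC2, -1.48 for RFC3 and -0.98 for RFC4. For lagging strand processing and single-strand binding it was -1.28 for LIG1, -0.98 for RPA2, -1.77 for FEN1 and -0.67 for RPA1. For nucleotide supply it was -1.93 for TYMS, -2.11 for RRM2, -1.55 for RRM1 and -1.23 for TK1. In G1/S control it was -2.32 for E2F8, -1.80 for E2F2, -2.52 for CCNE2, -1.50 for E2F1, -2.02 for CDC25A, -1.38 for RBL1 and -0.86 for E2F7. Of the chromatin and ubiquitin genes it was -1.38 for DTL and -2.01 for UHRF1. The test uses all 8 libraries, and both unedited groups enter it. No sample could be tested as standing apart within its group, since each group has 2 libraries.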

How the results depend on the processing

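Under 20 alternatives no result changed sign where it was called. Fitted on the 4 libraries of a comparison only, MLL4 KO was lower than WT in 0 of the 49 genes (27 as reported), 0 other replication genes (18), 1 regulator of the RB, E2F and DREAM list (7) and 0 mitosis genes (14), while BAP1 KO was lower than control in 5 other replication genes (0). That fit has fewer libraries to estimate the spread, and it gives no value for the difference of effects. Leaving out single libraries gave 1 to 36 of the 49 genes lower and 0 to 1 higher in MLL4 KO, 12 to 40 higher in BAP1 KO, and 24 to 46 lower in the difference. It gave 0 to 23 other replication genes, 1 to 12 regulators and 0 to 21 mitosis genes lower in MLL4 KO, and 0 to 1 other replication genes lower in BAP1 KO. The median log2 fold change of the 49 ranged over -0.92 to -0.37 in MLL4 KO and 0.82 to 0.89 in BAP1 KO. Control against WT kept 47 to 48 genes lower. Upper-quartile scaling split all calls in MLL4 KO into 1886 higher and 1211 lower, against 1536 higher and 1683 lower as reported. With a replicate block the 49 genes gave 25 lower in MLL4 KO and 37 higher in BAP1 KO. Same-numbered libraries did not deviate together (r = -0.134 for MLL4 KO and WT, 0.003 for BAP1 KO and control), and the fit as reported has no pairing. With 2 libraries per group, these values cannot show whether same-numbered libraries were made together. A block with the MLL4 KO numbers crossed, chosen after seeing the data like the older dispersion step of edgeR, gave 28 and 38, and the older step gave 24 and 37. DESeq2 gave 35 and 40 and limma-voom 30 and 33. Where a call was lost, the cause was not tested. With 2 libraries per group, a change that did not pass is not shown to be absent.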

Other observations

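The genes outside the 49 whose log2 CPM over the 8 libraries was most like the mean of the 49 genes' scaled levels were TUBA1B, CHAF1A and TONSL (Pearson r = 0.996 each), followed by TUBA1A and EBP (0.995 each). TUBA1A and TUBA1B encode nearly identical alpha tubulins, so the split of reads between them is uncertain. CHAF1A encodes a subunit of the chromatin assembly factor and is also on the list of other replication genes. The 8 points are 4 groups of 2 libraries, so these values describe the groups' order and carry no p.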
